A study of Mus musculus with 8 samples.

Results

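The genes described here are 9 factors of the core pluripotency network of mouse embryonic stem cells and proteins that work with its central factor Oct4: Pou5f1 (which encodes Oct4), Sox2, Sall4, Zfp296, Zscan10, Utf1, Trim28, Lin28a and L1td1. They were taken by symbol from the 55421 gene identifiers of the count table, and all 9 were found and passed the expression filter that left 14647 genes for testing. The libraries came from E14 (129/Ola) embryonic stem cells of blastocyst origin in which the microRNA cluster miR-290-295 is knocked out, so that every group, controls included, carries the deletion. Cells on gelatin in serum and LIF received 1 of 4 siPOOLs (mixtures of small interfering RNAs) at 5 nM and were harvested after 36 h. The groups were siTfap4, siWiz and siZic2, each directed at the transcription factor gene in its name, and siNeg, the negative control, with 2 biological duplicate libraries in each. How many clones the knockout line represents is not given in the sources used here, and no cells with an intact cluster were analysed here.

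In embryonic stem cells Oct4, a POU domain protein, and Sox2, an HMG box protein, bind DNA side by side at many enhancers and keep a self-sustaining set of pluripotency genes active. Sall4, Zfp296 and Zscan10 are zinc finger proteins linked to Oct4 and Sox2, and Utf1 is a chromatin protein whose gene is a classic Oct4 and Sox2 target. Trim28 is the scaffold that KRAB zinc finger proteins use to silence retroviral elements. Lin28a blocks maturation of the let-7 microRNAs, and L1td1 is an RNA-binding protein derived from a LINE-1 element.

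Libraries held between 8326675 and 13788856 counted reads, and the mitochondrial share was 5.08% to 6.84% in all 8. Levels are given in CPM, the read count of a gene after scaling all libraries to an equal total with TMM factors, and a call means an adjusted p under 0.05 over all 14647 genes by edgeR's quasi-likelihood test. Tfap4 was lowered to 13.9 ± 2.60 CPM in siTfap4 from 35.3 ± 2.60 CPM (SD, n = 2) in siNeg (edgeR adjusted p = 0.00417). Wiz stood at 18.2 against 48.0 CPM in siWiz and Zic2 at 1.99 against 3.35 CPM in siZic2, neither past the edgeR test over all genes (adjusted p = 0.708 and 1). Wiz had the smallest p of all genes in its comparison (4.83e-05) and was called by DESeq2 (adjusted p = 0.00553). Zic2 had few reads, 31 and 17 counts in siZic2 (2.15 and 1.83 CPM) and 54 and 23 in siNeg (4.49 and 2.21 CPM). A lowering of Zic2 by its siPOOL is thus not shown. All 6 stem cell markers checked (Pou5f1, Sox2, Nanog, Zfp42, Esrrb and Tdgf1) were detected, with summed levels of 2002 to 2195 CPM in siTfap4, 2322 to 2644 in siWiz, 2692 to 2856 in siZic2 and 2481 to 2707 in siNeg. Lists of 6 markers each gave sums over the 8 libraries of 5.25 to 9.22 CPM for primitive endoderm, 1.96 to 6.88 for mesoderm, 7.97 to 13.4 for fibroblasts, 55.3 to 94.8 for neural cells (Neurog2 at 0 throughout) and 144 to 280 for trophectoderm, the last mostly Tfap2c. In siTfap4 these sums were 5.63 and 7.94, 3.10 and 4.69, 7.97 and 9.92, 55.3 and 73.0, and 154 and 280 CPM in the same order, and the part of other cells in the results below was not tested. In bulk RNA, fewer cells expressing a gene and less of its RNA per cell cannot be told apart.

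Promoter sequences were examined because several of the genes were higher together in siTfap4. RefSeq (GRCm38.p6) gave start sites for 8 of the 9 genes, all but Sall4, from 250 bases before to 50 after the start. They were searched on both strands for the E-box CAGCTG, the core that Tfap4 binds, the octamer ATGCAAAT that Oct4 recognises, and the Sox motifs CATTGTT and CTTTGTT. Shown 5′ to 3′ are both Pou5f1 starts, Lin28a and Zscan10, whose siTfap4 levels differed most from siNeg, and Zfp296, which holds an octamer. Capitals mark motif matches, and a sequence with no capitals holds none.
Pou5f1 first start, chr17:35505782-35506081, plus strand: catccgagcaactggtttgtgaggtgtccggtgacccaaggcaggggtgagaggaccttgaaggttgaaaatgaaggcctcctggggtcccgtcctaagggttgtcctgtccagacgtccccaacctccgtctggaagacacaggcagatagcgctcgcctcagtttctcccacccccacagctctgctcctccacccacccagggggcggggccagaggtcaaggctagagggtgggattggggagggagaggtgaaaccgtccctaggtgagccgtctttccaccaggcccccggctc
Pou5f1 second start, chr17:35508557-35508856, plus strand: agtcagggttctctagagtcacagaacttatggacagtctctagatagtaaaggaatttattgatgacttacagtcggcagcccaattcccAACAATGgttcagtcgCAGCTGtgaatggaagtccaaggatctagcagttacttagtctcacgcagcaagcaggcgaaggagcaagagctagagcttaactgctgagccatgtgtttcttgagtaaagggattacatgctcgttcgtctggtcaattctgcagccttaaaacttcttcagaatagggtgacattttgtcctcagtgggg
Lin28a, chr4:134018767-134019066, minus strand: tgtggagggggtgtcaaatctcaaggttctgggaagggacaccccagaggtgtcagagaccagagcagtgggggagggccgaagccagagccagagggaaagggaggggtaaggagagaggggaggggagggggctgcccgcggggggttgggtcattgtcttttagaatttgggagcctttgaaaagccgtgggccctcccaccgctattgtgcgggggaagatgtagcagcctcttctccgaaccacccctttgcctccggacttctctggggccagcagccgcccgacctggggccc
Zscan10, chr17:23600576-23600875, plus strand: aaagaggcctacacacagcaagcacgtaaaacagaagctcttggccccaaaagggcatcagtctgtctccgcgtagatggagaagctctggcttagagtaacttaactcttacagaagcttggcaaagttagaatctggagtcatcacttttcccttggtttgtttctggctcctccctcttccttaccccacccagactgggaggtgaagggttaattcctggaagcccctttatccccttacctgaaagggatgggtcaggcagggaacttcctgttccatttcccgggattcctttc
Zfp296, chr7:19577037-19577336, plus strand: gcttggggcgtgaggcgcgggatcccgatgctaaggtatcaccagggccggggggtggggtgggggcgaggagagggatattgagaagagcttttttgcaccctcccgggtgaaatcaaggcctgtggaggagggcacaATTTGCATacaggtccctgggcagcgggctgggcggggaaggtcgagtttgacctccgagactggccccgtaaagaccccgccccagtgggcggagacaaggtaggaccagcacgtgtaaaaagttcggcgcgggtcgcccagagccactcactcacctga

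The first Pou5f1 start had no match to the 4 motifs. Its second start, inside the gene, held a Sox motif (AACAATG, the reverse complement of CATTGTT) 159 bases before the start and the E-box CAGCTG 143 bases before it. In Zfp296 the octamer, read as ATTTGCAT, lay 111 bases before the start. No match was found in the windows of Lin28a, Zscan10, Sox2, Utf1, L1td1 and Trim28. For Sox2 and Zscan10 the last 50 bases of the window were not found whole in a GENCODE transcript of the gene. The Sox2 window ended at 34650044, before the GENCODE start at 34650405, and so did not cover that start. Among 32851 promoters of the table outside chromosome 18, 16.3% held the E-box, 1.74% the octamer, 3.78% CATTGTT, 5.85% CTTTGTT and 25.6% at least 1 of them, and a match is a description of the letters, not a bound site.

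The comparison of siTfap4 with siNeg gave 2 calls among the 9. With 1 siPOOL for Tfap4, an effect of lowering Tfap4 cannot be told apart from other effects of the pool. Pou5f1 and Lin28a rose, 2.03-fold and 1.75-fold. Zscan10 was 1.65-fold higher and just missed the threshold, and L1td1, Trim28, Utf1 and Sox2 were higher by 1.34-fold to 1.11-fold without a call. Sall4 and Zfp296 were lower by 1.03-fold and 1.22-fold, also without a call. For reference, 15.9% of all genes tested were called in this comparison, 4.24% as higher and 11.7% as lower. These 621 higher and 1709 lower calls became 6 and 498 when siTfap4 replicate 1 was left out, 55 and 702 when siNeg replicate 1 was, and 1143 and 2179 when siTfap4 replicate 2 was, with the other libraries left out giving counts between these. At an unadjusted edgeR p under 0.05 there were 3 of the 9 genes (32.4% of all genes). DESeq2 also called 3 (21.1% of the 12648 genes with a DESeq2 adjusted p). In 7 the siTfap4 and siNeg levels did not overlap (59.1% of all genes). The median log2 fold change was 0.36 over the 9 genes and 0.01 over all genes. In 7 of the 9, both siTfap4 libraries lay above all 6 other libraries, an arrangement found in 21.4% of all genes tested, and in 0 of the 9 they lay below all 6 (23% of all genes).

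**Figure D1:**
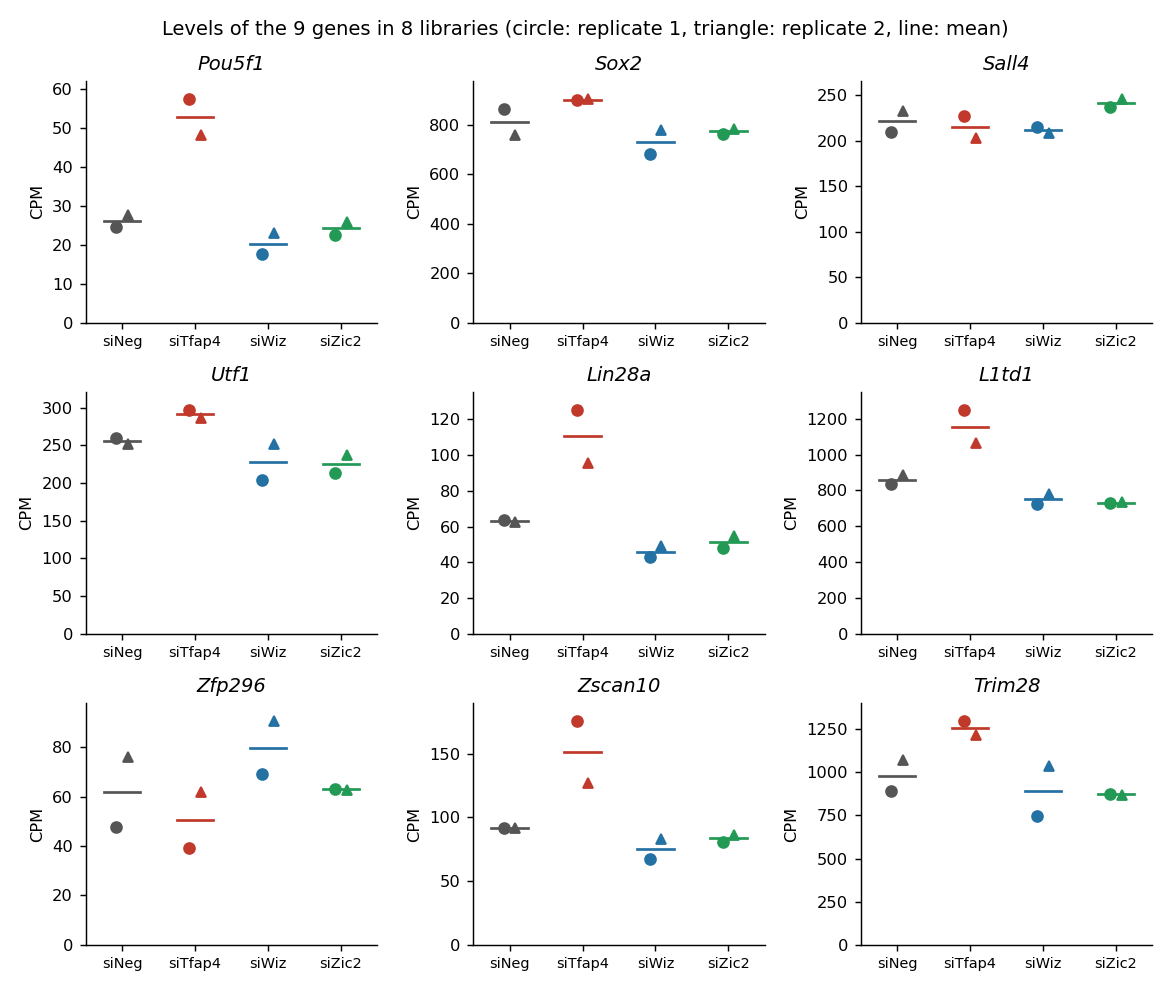
Level of each gene in CPM (TMM-scaled, linear axes from 0) by siPOOL group. Each point is 1 library and each line the mean of 2. In siTfap4, Pou5f1 (48.1 and 57.4 CPM), Lin28a and Zscan10 stand apart from the other 6 libraries, while Sall4 and Zfp296 overlap them.

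Among the central transcription factors, Pou5f1 (ENSMUSG00000024406, GRCm38 chromosome 17, 35506018 to 35510772, plus strand) had 463 and 410 counts in siTfap4, or 57.4 and 48.1 CPM. It had 24.4 and 27.5 CPM in siNeg, 17.6 and 22.9 in siWiz, and 22.4 and 25.9 in siZic2. The siTfap4 libraries were both above the other 6, whose highest value was 27.5 CPM, and the remaining groups lay close together with siWiz lowest. For Pou5f1 the change against siNeg was 1.02 on the log2 scale (SE 0.25, 95% interval 0.49 to 1.55, edgeR adjusted p = 0.0159). Against siWiz it was 1.38 (SE 0.25, edgeR adjusted p = 0.00418) and against siZic2 1.13 (SE 0.25, edgeR adjusted p = 0.00728). These comparisons, here and for the genes that follow, share the siTfap4 libraries and so are not independent of each other. Without siTfap4 replicate 1 the siNeg contrast was 0.88 (edgeR adjusted p = 0.108), and without siNeg replicate 1 it was 0.96 (edgeR adjusted p = 0.0990). Leaving out 1 library also ended the calls against siWiz (without siWiz replicate 1, 1.21, edgeR adjusted p = 0.0695) and against siZic2 (without siTfap4 replicate 1, 0.99, edgeR adjusted p = 0.0533, and without siZic2 replicate 1, 1.00, edgeR adjusted p = 0.0987). The pseudogene-like transcripts that share 25-base words with Pou5f1, among them Gm5712 with 153 of 2288 words, had 0 counts, as did Gm19553, which overlaps it on the opposite strand. How reads that match several places were counted is not given in the sources used here. These 0 counts therefore cannot tell whether some reads of Pou5f1 itself were left out.

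Sox2 (ENSMUSG00000074637, chromosome 3, 34650405 to 34652461, plus strand) had 898 and 904 CPM in siTfap4, 861 and 758 in siNeg, 682 and 779 in siWiz, and 763 and 784 in siZic2. The siTfap4 values were the highest, with siNeg replicate 1 close behind. The log2 fold change against siNeg was 0.15 (SE 0.22, 95% interval -0.33 to 0.64, edgeR adjusted p = 0.666), or 0.80 to 1.55 as a ratio of levels. Against siWiz and siZic2 it was 0.30 and 0.22, also without a call (edgeR adjusted p = 0.381 and 0.503). Sox2 lies within the same-strand noncoding gene Sox2ot, which had 0.667% as many counts.

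Of the zinc finger partners, Zscan10 (ENSMUSG00000023902, chromosome 17, 23600856 to 23611019, plus strand) followed the order of Pou5f1. Its levels were 176 and 127 CPM in siTfap4, 91.8 and 91.4 in siNeg, 67.4 and 83.1 in siWiz, and 80.9 and 86.2 in siZic2. Both siTfap4 libraries were above the rest, although they differed from each other by 0.47 on the log2 scale. The log2 fold change of Zscan10 was 0.72 against siNeg (SE 0.23, 95% interval 0.22 to 1.23, edgeR adjusted p = 0.0514), and DESeq2 put its adjusted p at 0.0271. It rose against siWiz (1.01, SE 0.24, edgeR adjusted p = 0.0142) and against siZic2 (0.86, SE 0.24, edgeR adjusted p = 0.0203). Without siTfap4 replicate 1 those calls ended (0.75, edgeR adjusted p = 0.126, and 0.60, edgeR adjusted p = 0.161), as they did without siWiz replicate 1 (0.87, edgeR adjusted p = 0.171) and, for siZic2, without its replicate 1 or 2 (edgeR adjusted p = 0.167 and 0.114).

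Sall4, which encodes a zinc finger protein that recruits the NuRD deacetylase complex, was the steadiest of the 9 (ENSMUSG00000027547, chromosome 2, 168748332 to 168767943, minus strand). It had 228 and 203 CPM in siTfap4, 210 and 233 in siNeg, 216 and 209 in siWiz, and 238 and 246 in siZic2, a 1.21-fold span from the lowest to the highest library. The siTfap4 and siNeg values interleave. The log2 fold change against siNeg was -0.04 (SE 0.21, 95% interval -0.50 to 0.42, edgeR adjusted p = 0.920), and no comparison gave a call.

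Zfp296 (ENSMUSG00000011267, chromosome 7, 19577287 to 19580656, plus strand) had the widest spread between duplicates of the 9 genes in siTfap4 and siNeg. It had 39.3 and 61.9 CPM in siTfap4, 47.7 and 75.9 in siNeg, 69.1 and 90.5 in siWiz, and 63.1 and 62.7 in siZic2. Replicate 2 exceeded replicate 1 by 0.65 on the log2 scale in siTfap4, by 0.67 in siNeg and by 0.39 in siWiz. The siNeg libraries overlap those of all 3 other groups, while siTfap4 lay below siWiz and siZic2 without overlap. On the log2 scale Zfp296 differed by -0.29 against siNeg (SE 0.29, edgeR adjusted p = 0.516), -0.66 against siWiz (SE 0.29, edgeR adjusted p = 0.135) and -0.31 against siZic2 (SE 0.29, edgeR adjusted p = 0.451). Its start overlaps 309 bases of the opposite-strand gene Gemin7, which held 178% as many counts as Zfp296 in siTfap4 and 66.7% in the other groups. The 3′ end of Zfp296, which these libraries read, lies outside Gemin7.

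Of the chromatin proteins, Utf1 (ENSMUSG00000047751, chromosome 7, 139943789 to 139945112, plus strand) had 297 and 286 CPM in siTfap4, 261 and 253 in siNeg, 204 and 252 in siWiz, and 213 and 238 in siZic2. The siTfap4 pair was highest by a small margin. On the log2 scale Utf1 differed by 0.19 against siNeg (SE 0.22, edgeR adjusted p = 0.593), 0.35 against siWiz (edgeR adjusted p = 0.289) and 0.37 against siZic2 (edgeR adjusted p = 0.232).

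Trim28 (ENSMUSG00000005566, chromosome 7, 12999114 to 13031035, plus strand) had 1297 and 1216 CPM in siTfap4, 890 and 1069 in siNeg, 748 and 1036 in siWiz, and 877 and 871 in siZic2. Both siTfap4 libraries exceeded the highest other library, siNeg replicate 2. For Trim28 the log2 fold change was 0.36 against siNeg (SE 0.24, 95% interval -0.16 to 0.88, edgeR adjusted p = 0.327), 0.49 against siWiz (edgeR adjusted p = 0.181) and 0.52 against siZic2 (edgeR adjusted p = 0.134), none of them called.

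Both RNA-binding proteins were higher in siTfap4. Lin28a (ENSMUSG00000050966, chromosome 4, 134003330 to 134018841, minus strand) had 125 and 95.7 CPM in siTfap4, 63.4 and 62.5 in siNeg, 42.7 and 49.3 in siWiz, and 47.7 and 55.0 in siZic2. No other library came above 63.4 CPM, and siNeg lay above siWiz and siZic2 without overlap. It rose against siNeg (log2 0.81, SE 0.23, 95% interval 0.32 to 1.31, edgeR adjusted p = 0.0315), siWiz (1.26, SE 0.23, edgeR adjusted p = 0.00451) and siZic2 (1.11, SE 0.23, edgeR adjusted p = 0.00578). The siNeg call was lost without any of 5 single libraries, with edgeR adjusted p from 0.0583 without siZic2 replicate 1 and 0.0584 without siZic2 replicate 2 to 0.0930 without siNeg replicate 2, 0.119 without siNeg replicate 1 and 0.216 without siTfap4 replicate 1. It was also lost with the siTfap4 and siNeg libraries fitted alone (edgeR adjusted p = 0.0918). Against siWiz it was lost without siWiz replicate 1 (edgeR adjusted p = 0.0718), and against siZic2 without siZic2 replicate 1 (edgeR adjusted p = 0.0863).

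L1td1 (ENSMUSG00000087166, chromosome 4, 98726734 to 98738480, plus strand) had 1249 and 1063 CPM in siTfap4, 835 and 884 in siNeg, 724 and 783 in siWiz, and 731 and 733 in siZic2. Both siTfap4 libraries were above the other 6. The log2 fold change was 0.43 against siNeg (SE 0.23, 95% interval -0.06 to 0.91, edgeR adjusted p = 0.207) and 0.62 against siWiz (edgeR adjusted p = 0.0797). Against siZic2 it was 0.66 with an edgeR adjusted p of 0.0497, a call that ended under 9 of 18 alternative settings.

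**Figure D2:**
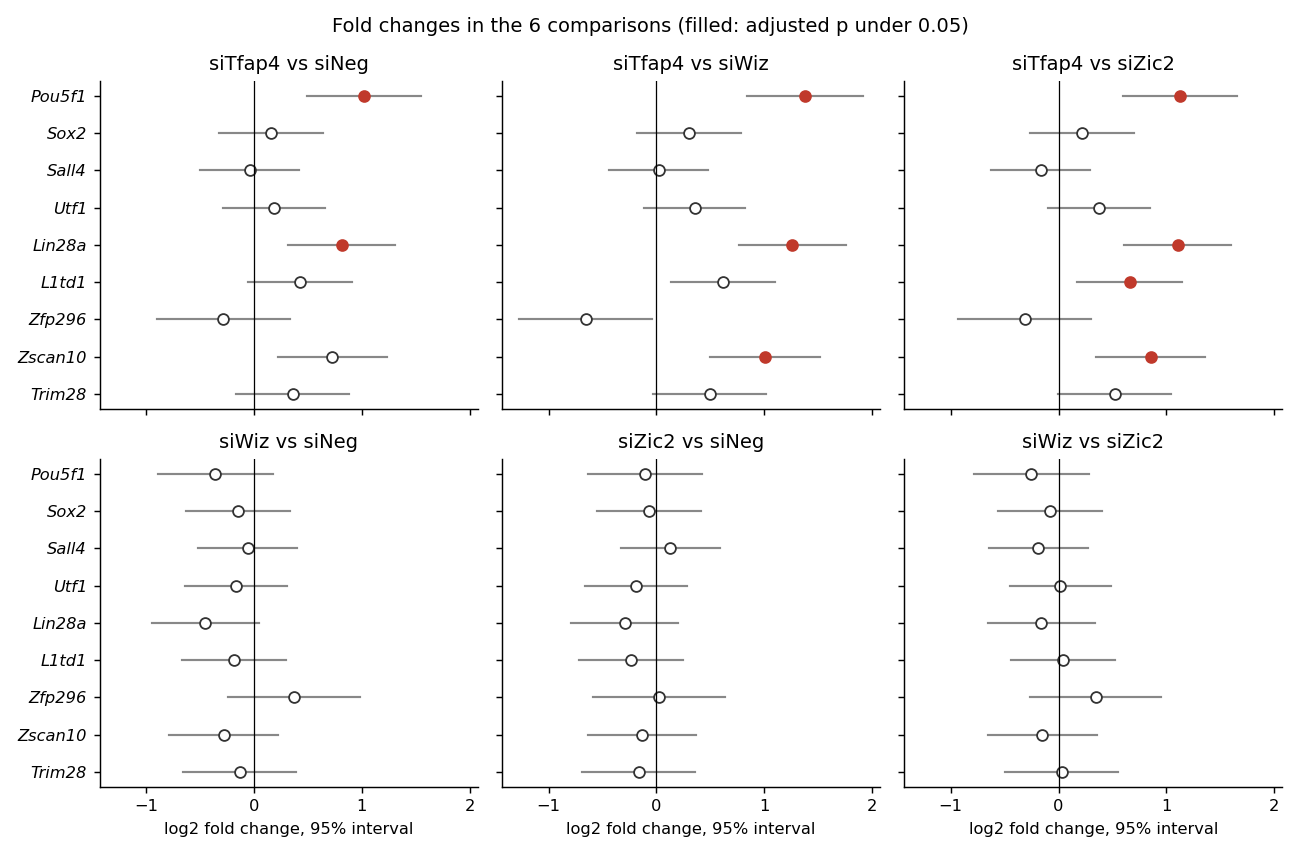
Log2 fold change (first group minus second) of each gene in the 6 comparisons, with 95% intervals from the edgeR fit and filled points for an adjusted p under 0.05. Filled points are found in the 3 panels with siTfap4, for Pou5f1 and Lin28a in each of them, and in 0 of the 9 genes in the other 3 panels.

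With the other siPOOLs as the reference, 3 of the 9 genes rose in siTfap4 against siWiz (Pou5f1, Lin28a and Zscan10), where 15.1% of all genes were called, 4.66% higher and 10.4% lower. Against siZic2 these genes and L1td1 rose, 4 of 9, where 23.1% of all genes were called, 8.41% higher and 14.7% lower. In both comparisons edgeR called 0 of the 9 lower. At an unadjusted edgeR p under 0.05 there were 5 of the 9 against siWiz (31.6% of all genes) and 4 against siZic2 (37.6%). DESeq2 called 4 of the 9 against siWiz (19.3%) and 4 against siZic2 (25.4%). Levels did not overlap in 8 of the 9 against siWiz (61.7%) and in 9 against siZic2 (66.8%). The median log2 fold change of the 9 was 0.49 against siWiz and 0.52 against siZic2, beside -0.01 and 0.02 over all genes.

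The siWiz and siZic2 pools gave no call by edgeR among the 9 genes, in comparisons where 0% of all genes were called. None of the 9 had an unadjusted p under 0.05 in siWiz against siNeg, siZic2 against siNeg or siWiz against siZic2, and DESeq2 called 0 of the 9 in each. Over all genes, 266, 86 and 384 had an unadjusted edgeR p under 0.05 in these comparisons (1.82%, 0.587% and 2.62%), and DESeq2 called 1 (0.00371%; the targeted gene Wiz), 0 and 0. The levels of the 2 groups did not overlap in 5, 6 and 2 of the 9 genes, beside 25.1%, 23.8% and 35% of all genes. In siWiz 8 of the 9 had a negative log2 fold change against siNeg, from -0.45 for Lin28a (SE 0.23, 95% interval -0.95 to 0.04) to -0.06 for Sall4, with Zfp296 at 0.37 (95% interval -0.24 to 0.98). Their median was -0.17, beside -0.0011 over all genes, of which 7296 of 14647 had a positive log2 fold change. Library siWiz replicate 1 held the lowest value of all 8 libraries in 7 of the 9 genes. How often it was lowest over all genes was not counted, so that number has no reference. In siZic2 the changes ran from -0.29 for Lin28a (95% interval -0.79 to 0.20) to 0.13 for Sall4, with a median of -0.13. Between siWiz and siZic2 they ran from -0.25 for Pou5f1 to 0.34 for Zfp296. With 2 libraries in each group, changes of the size of these intervals could not be told from none.

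**Figure D3:**
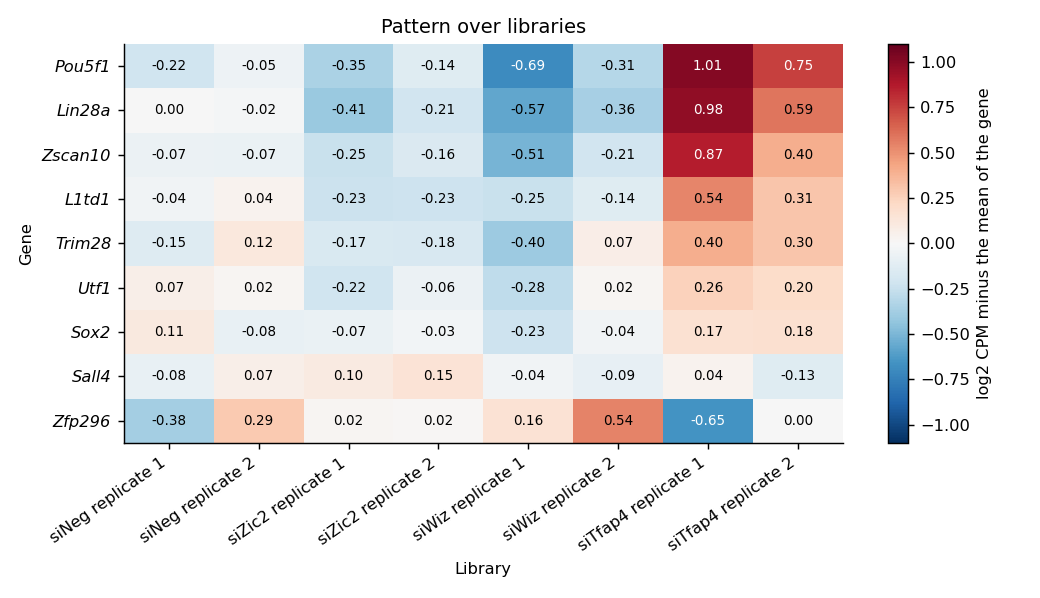
Log2 CPM (prior count 2) of each gene minus its own mean over the 8 libraries, one column per library. The siTfap4 columns are red for 7 genes and strongest in replicate 1 for Pou5f1 (1.01), Lin28a (0.98) and Zscan10 (0.87), while Zfp296 stands at -0.65 there.

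The siTfap4 duplicates did not move by the same amount. For Pou5f1, Lin28a, L1td1 and Zscan10, replicate 1 was higher than replicate 2 by 0.26, 0.39, 0.23 and 0.47 on the log2 scale, where the median absolute difference between these libraries over all genes was 0.40. In siNeg the same genes differed by 0.17, 0.02, 0.08 and 0.01, against a median of 0.36 over all genes. Sox2 and Utf1 differed by 0.01 and 0.05 between the siTfap4 libraries.

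The likeness of patterns was measured as the root mean square difference of centred log2 CPM over the 8 libraries, among 6447 genes with a mean of at least 20 CPM. The genes nearest to Pou5f1 were Csrp1, a LIM domain protein (0.07), Rbm8a2 (0.10), Atp9a, a phospholipid flippase (0.10), Lin28a (0.11) and Ypel3 (0.11), with a median of 0.57 over all genes. Lin28a was thus at rank 4 of 6447 and Zscan10 stood at rank 42 (0.17), whereas Sox2 was at rank 1870 (0.44), Sall4 at 3042 and Zfp296 at 4813 (0.80). These ranks come from levels without the GC and length offset described below. With that offset the log2 fold change against siNeg was 0.85 for Sox2 and 0.42 for Zscan10. Csrp1, Rbm8a2, Atp9a and Ypel3 had log2 fold changes of 0.98, 0.88, 1.09 and 1.12 in siTfap4 against siNeg, given without a test because choosing them by likeness to Pou5f1 over these libraries fixes that direction. Nearest to Sox2 were the RNA-binding protein genes Hnrnpd (0.04) and Tra2a (0.07), the adhesion molecule gene Nptn (0.06), Dr1, a repressor of general transcription (0.07), and the polarity gene Scrib (0.07). Utf1 was the nearest of the other 8 genes to Sox2, at rank 12 (0.08). The median distance to Sox2 over all genes was 0.31.

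Several of the genes that were higher in siTfap4 have GC-rich transcript ends, which is the part these libraries read. Protein-coding genes were divided into 5 bins of near equal size by the GC content of the last 300 bases. The median log2 fold change of siTfap4 against siNeg went from -0.30 in the lowest bin (15.3% to 34.3% GC) through -0.21, -0.07 and 0.15 to 0.46 in the highest (50.3% to 73.7% GC). The highest bin had 288 genes called higher, 11.7% of its members, and the lowest 24 (0.959%). Utf1 and Zscan10 (54.0% GC each), Zfp296 (53.0%), Pou5f1 (52.7%) and Trim28 (51.7%) belong to the highest bin and Lin28a (48.3%) to the next. L1td1 (44.3%) and Sall4 (43.7%) belong to the middle bin and Sox2 (29.0%) to the lowest. The part of GC content in the results above was not tested beyond the offset described next.

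With an offset for this GC content and for transcript length, an alternative chosen after seeing the data, Pou5f1 and Lin28a kept their calls against siNeg (log2 0.78, edgeR adjusted p = 0.0190, and 0.77, edgeR adjusted p = 0.0160). Sox2 moved from 0.15 to 0.85 and passed the test (edgeR adjusted p = 0.0140), while Zscan10 moved to 0.42 (edgeR adjusted p = 0.130) and Utf1 to -0.14 (edgeR adjusted p = 0.635). Against siWiz Sox2 was at 0.93 (edgeR adjusted p = 0.0101) and against siZic2 at 1.05 (edgeR adjusted p = 0.00381) with the offset. Zfp296 was then lower than in siWiz (-0.85, edgeR adjusted p = 0.0219), and the Zscan10 call against siZic2 ended (0.51, edgeR adjusted p = 0.0630). The offset was fitted to protein-coding genes alone, whose median log2 fold change against siNeg was 0.12 with it and 0.02 without it. Of these genes, 1390 were called higher and 1445 lower with the offset. The 621 higher and 1709 lower calls of the main fit cover all genes tested, which is an unlike set. The 5 GC bins hold the same protein-coding genes as the offset fit. In them, from lowest to highest GC, the main fit called 24, 38, 86, 130 and 288 higher. It called 436, 460, 373, 207 and 108 lower.

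**Figure D4:**
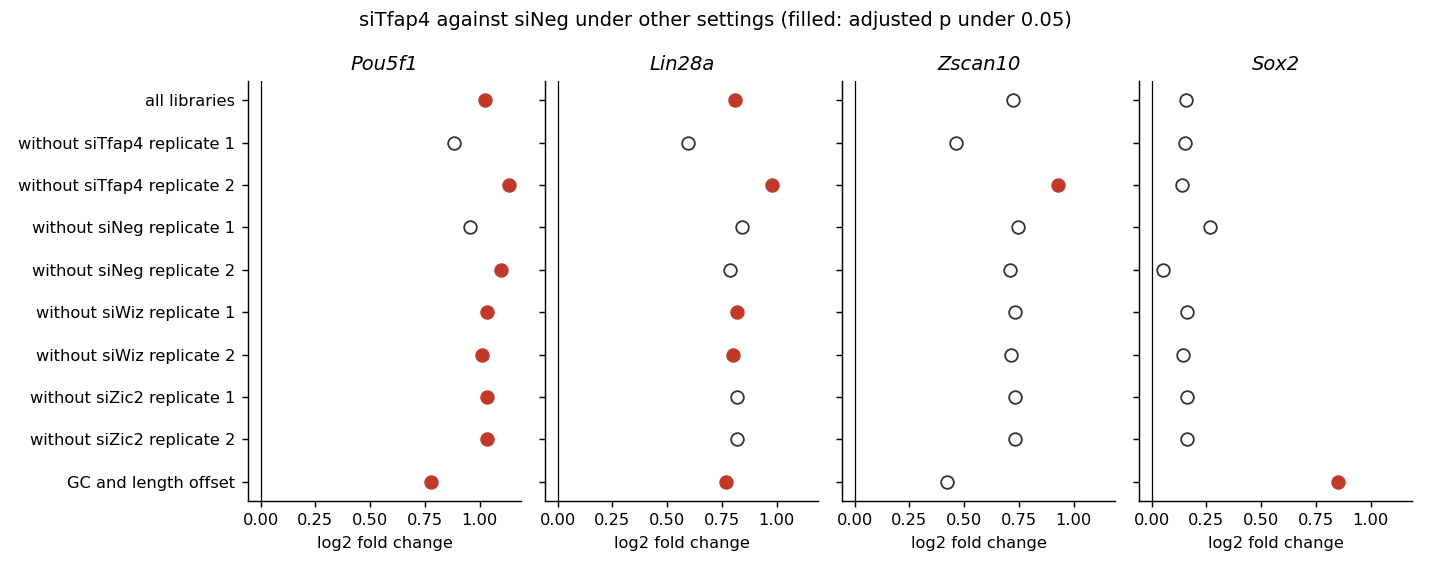
Log2 fold change of siTfap4 against siNeg for 4 genes with all libraries, with each library left out, and with an offset for GC content and length, filled where the edgeR adjusted p was under 0.05. Pou5f1 stays between 0.78 and 1.13, Zscan10 between 0.42 and 0.93, and Sox2 between 0.05 and 0.27 except for 0.85 with the offset.

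Genes around these factors were taken as 5 lists in siTfap4 against siNeg, and their counts are read beside the 11.7% of all genes called lower and the 4.24% called higher. No test compared the lists with each other or with the 9 genes. Of 30 described Oct4 and Sox2 target genes, 6 fell, 1 rose and 23 did not pass the test, with a median log2 fold change of -0.17 that turned to 0.10 with the GC and length offset. Dppa5a, whose KH domain protein marks pluripotent cells, fell from 376 and 489 CPM to 3.72 and 9.26 (log2 -6.05, SE 0.58, edgeR adjusted p = 0.000365), though 29.5% of the 50-base words at its transcript end occur in other genes. Nr0b1, an orphan nuclear receptor, fell from 151 and 41.2 to 1.49 and 5.86 CPM (log2 -4.70, SE 0.64). The junction protein gene Jam2 fell by 1.17 on the log2 scale and the homeobox gene Nanog by 1.48, from 399 and 314 to 77.6 and 177.5 CPM. In each of these 4 genes both siTfap4 libraries lay below both siNeg libraries, and levels did not overlap in 59.1% of all genes. Naming called genes with the smallest p in this comparison all but fixes that separation, so nothing is drawn from it.

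Of 17 partners and relatives of Sall4, mainly NuRD subunits, 4 fell and 1 rose (median log2 -0.11, and 0.06 with the offset). Those that fell were Mta1 (log2 -1.82, edgeR adjusted p = 0.00315) and Rbbp7 (-1.31, edgeR adjusted p = 0.0108), both NuRD subunits, the methyl-CpG binding protein gene Mbd2 (-1.97, edgeR adjusted p = 0.00530) and the Sall4 paralogue Sall1 (-0.92, edgeR adjusted p = 0.0187). The gene that rose was the NuRD subunit Mta3 (0.85, edgeR adjusted p = 0.0303), named after its values were seen. This list held 0 called higher by edgeR with the siTfap4 and siNeg libraries alone, and without siTfap4 replicate 1 or either replicate of siZic2 or siNeg. Of 15 partners of Trim28 in silencing, 2 fell by edgeR and 0 rose (median -0.10). Of these 15, 6 had an unadjusted p under 0.05, beside 32.4% of all genes. DESeq2 called 3, beside 21.1% of the genes with a DESeq2 adjusted p. A count of 2 in 15 is near the share of all genes called lower. Those that fell were the chromatin remodeler gene Smarcad1 (-1.46, edgeR adjusted p = 0.00333) and Uhrf1, which guides maintenance DNA methylation (-0.96, edgeR adjusted p = 0.0231). With the GC and length offset the Uhrf1 call was lost (-0.60, edgeR adjusted p = 0.0512), and in this list of 15, 2 rose and 1 fell.

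Of 14 genes of the Lin28 and let-7 axis, edgeR called 0 and the median was 0.15. In this list 3 had an unadjusted p under 0.05, beside 32.4% of all genes. DESeq2 called 1, beside 21.1% of the genes with a DESeq2 adjusted p. Tut7, which encodes a uridylyltransferase that acts on let-7 precursors, was at 0.74 (edgeR adjusted p = 0.0595). It was called with a mean of at least 5 CPM (edgeR adjusted p = 0.0492), with protein-coding genes alone (0.0498) and by DESeq2 (0.0402). It was not called with RLE factors, library totals, no filter, the groups alone or thinning. With the GC and length offset Tut7 was at 0.83 (edgeR adjusted p = 0.0145), and 2 of this list rose. With 1 library left out it ran from 0.46 to 0.97. Of 10 relatives and antagonists of Oct4, 8 were tested and 1 fell, the POU factor gene Pou2f1, from 269 and 207 to 76.1 and 90.9 CPM (log2 -1.51, SE 0.25, edgeR adjusted p = 0.00209). Without siTfap4 replicate 1 the calls of Nanog, Jam2, Mbd2, Rbbp7, Sall1 and Uhrf1 were lost (edgeR adjusted p = 0.111, 0.0697, 0.0617, 0.0828, 0.147 and 0.178), and without siNeg replicate 1 those of Nanog, Sall1 and Uhrf1 (0.0846, 0.111 and 0.118). The list counts moved with them: without siTfap4 replicate 1, 2 of the Oct4 and Sox2 targets, 1 of the Sall4 partners and 1 of the Trim28 partners fell and 0 rose by edgeR, and without siNeg replicate 1 these counts were 3, 3 and 1, again with 0 higher. Without siTfap4 replicate 2, Nr0b1 was at -6.02, Dppa5a at -6.87, Nanog at -2.21 and Rbbp7 at -1.91 on the log2 scale, and Nr0b1 was at -3.46 without siNeg replicate 1. With the GC and length offset, 6 of the Oct4 and Sox2 targets rose and 7 fell.

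**Figure D5:**
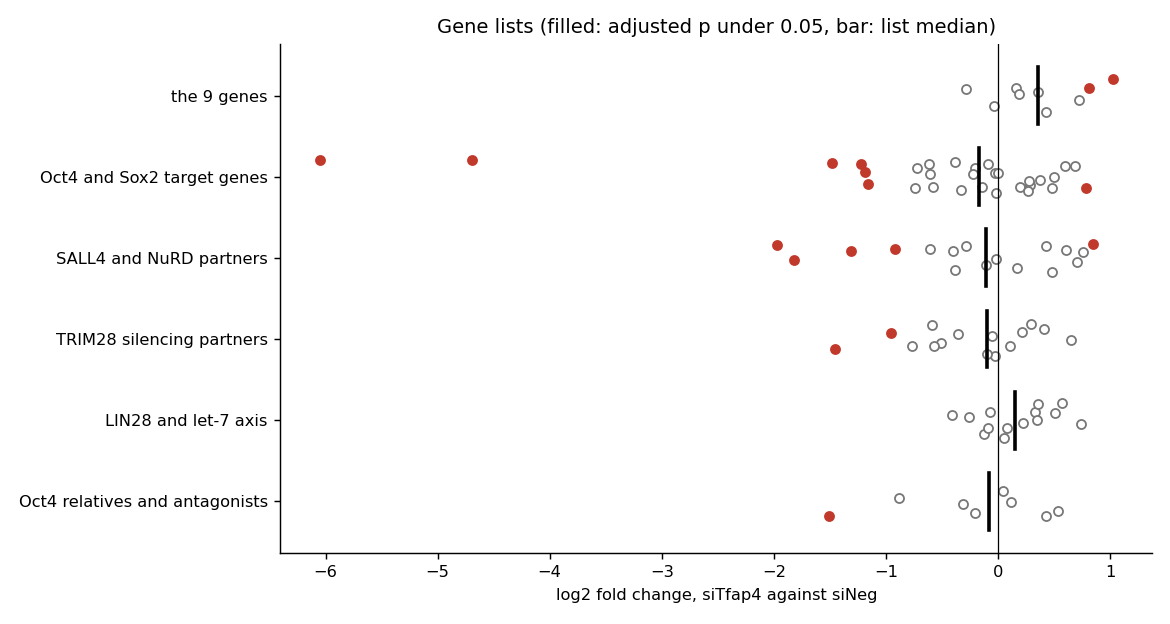
Log2 fold change of siTfap4 against siNeg for the 9 genes and for 5 lists of surrounding genes, 1 point per gene (vertical scatter is arbitrary), filled where the edgeR adjusted p was under 0.05, with a bar at the list median. The median of the 9 genes is 0.36 and those of the lists lie between -0.17 and 0.15, with Dppa5a at -6.05 and Nr0b1 at -4.70 as the far points.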

How the data were processed

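Polyadenylated RNA of 8 libraries was read with QuantSeq 3' mRNA-Seq FWD, per the labels' protocols, so counts come from transcript ends and were not divided by length. Levels were not compared between genes. Values deposited by the authors are unnormalised counts, 1 row for each Ensembl gene. Trim Galore and GRCm38 are named in the submitters' processing notes, without versions. Which aligner and counter were used, and with what strand setting, is not given in the sources used here, nor is any use of molecular identifiers.

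Symbols and positions were taken from GENCODE M21 (55154 of 55421 identifiers matched). Genes passing filterByExpr were scaled by TMM and fitted with edgeR 4.0.16 in R 4.3.3, 1 mean per group, all 8 libraries together, no block. The biological coefficient of variation was 22.2% with 4 residual degrees of freedom. In each of 6 comparisons the Benjamini-Hochberg adjustment covered all genes tested. Standard errors came from the quasi-likelihood F statistic. Duplicates were checked for repeated deposits and all differed beyond sampling noise (chi-square 17.7 to 37.7 for each degree of freedom). The labels call them biological duplicates. The fit was tested on simulated data for siTfap4 against siNeg. It called 22 of 98 genes (22.4%) given a log2 change of 1 in size and 80 of 97 (82.5%) given 2. Another 5 genes without a change were called. In that simulation most changes of 1 on the log2 scale were missed. It changed few genes, whereas 2330 of 14647 were called in the data, so a call needed a smaller unadjusted p there. Its recovery therefore does not give the recovery in these data. A missing call still does not show that a gene was unchanged. DESeq2 1.42.0 was an alternative. Shares called by DESeq2 are over the genes with a DESeq2 adjusted p. These were 12648, 13142 and 13636 for siTfap4 against siNeg, siWiz and siZic2, and 26969 in each other comparison.

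The 9 genes and the lists were chosen with earlier results of these data known. Named were the 9 genes, up to 4 called genes of each list with the smallest p (or 2 uncalled), and the 5 genes nearest to Pou5f1 and to Sox2. A gene that the rule names is not reported here. GC content and length are those of the longest coding transcript of each protein-coding gene. Alternatives were RLE factors, library totals, other filters, compared groups alone, a replicate block and each library left out, and, chosen after seeing the data, thinning, protein-coding genes alone, the GC and length offset, and siTfap4 left out.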

Additional observations from a re-analysis of the deposited data

How the results depend on the processing

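Counts of the 9 genes called ran, with each library left out in turn, from 0 to 3 in siTfap4 against siNeg, 0 to 4 against siWiz and 0 to 4 against siZic2. Counts of all genes called ran from 504 to 3322, 401 to 3279 and 905 to 4057 (2330, 2207 and 3379 with all libraries). All of these counts were 0 in the other 3 comparisons. With the compared groups alone, 1 of the 9 was called against siNeg, where 266 of all genes were called higher. Against siWiz, that setting called 1411 of all genes, 349 of them higher. With no filter beyond 1 count, edgeR called 12 genes in siWiz against siNeg and 23 in siWiz against siZic2, and DESeq2 called 1 in siWiz against siNeg. With the GC and length offset, 6 of the 9 were called against siWiz, among them Zfp296 as lower. In that fit 1344 of the protein-coding genes were called higher.

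With the replicate number as a block, 5 of the 9 were called against siWiz (3 without it). Over all genes, 1100 were then called higher against siWiz (682 without the block). Those added among the 9 were L1td1 (log2 0.62, edgeR adjusted p = 0.0376) and Zfp296 (-0.68, edgeR adjusted p = 0.0479). Genes called higher against siNeg went from 621 to 1147. Zscan10 and Tut7 against siNeg had edgeR adjusted p of 0.0334 and 0.0243. Equal numbers deviated together (r over 0.1) in 5 of 6 pairs of groups, from -0.04 to 0.33, across genes. The numbers were not taken as pairs because pairing was accepted only with r over 0.1 in every pair of groups. Some effect shared by equal numbers remains possible.

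Pou5f1, Lin28a, Zscan10 and L1td1 kept a positive sign in every alternative run for the 3 siTfap4 comparisons. Signs turned only in uncalled values. Against siNeg, the offset gave Sall4 0.065 and Utf1 -0.14. Sall4 against siWiz was -0.022 with library totals, and Zfp296 in siZic2 against siNeg -0.027 after thinning. In siWiz against siZic2, Utf1 was -0.016 with library totals, -0.018 without the filter, -0.0063 with the groups alone, -0.0056 without siTfap4 and -0.12 with the offset, Trim28 was -0.0069 with library totals, -0.0069 without the filter and -0.034 with the offset, and Sox2 was 0.12 with the offset. With 1 library left out, ranges that crossed 0 were, against siNeg, Sall4 -0.13 to 0.030 and Zfp296 -0.66 to 0.074 in siTfap4, Trim28 -0.39 to 0.085 and Sall4 -0.12 to 0.013 in siWiz, and Pou5f1 -0.20 to 0.032, Sox2 -0.16 to 0.065 and Zfp296 -0.24 to 0.40 in siZic2. They were also Sall4 -0.070 to 0.093 in siTfap4 against siWiz, and Utf1 -0.14 to 0.14, L1td1 -0.015 to 0.073 and Trim28 -0.23 to 0.22 in siWiz against siZic2. The cause was not tested. A library left alone in its group was taken to vary as the others do. The L1td1 call against siZic2 ended with RLE factors (edgeR adjusted p = 0.0503), library totals (0.0713), no filter (0.0789), the groups alone (0.0732) and 5 single libraries left out (0.0881 to 0.248).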
